A study of Mus musculus with 6 samples.

Results

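Genes of the angiotensin and kinin systems were examined in the mouse pre-osteoblast line MC3T3-E1, derived from calvaria, on 1-colour whole-genome arrays. Members were the 9 genes Agt, Enpep, Mme, Ace, Agtr1a, Agtr2, Lnpep, Bdkrb1 and Bdkrb2, taken where a probe set names exactly 1 gene. By that rule 8 of the 9 were measured, among 19938 genes in all, each by 1 probe set, and Lnpep, the insulin-regulated aminopeptidase, was not analysed here. The set was selected on measured values: Agt and Enpep are among the genes with the largest log2 rises in this same comparison, so their values are given as a description without a test. The differentiated group held 3 arrays of cells brought to confluence and then kept for 14 days in DMEM with 10% serum, 0.1 µM dexamethasone, 0.2 mM ascorbic acid-2-phosphate, 10 mM β-glycerophosphate and 1 mM sodium pyruvate. The undifferentiated group held 3 arrays of cells grown without induction in α-MEM lacking ascorbic acid, also with 10% serum. The labels give newborn C57BL/6 calvaria as the source of the line for both groups. The groups differ at once in time after confluence, in base medium and in the added induction compounds, and the shares of these in any difference cannot be told apart. No amount of dexamethasone, β-glycerophosphate or sodium pyruvate is given for the undifferentiated group. All arrays come from 1 cell line, and the replicates are called independent with no word on what separated them, so that p-values measure the spread between these arrays.

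Angiotensinogen, the product of Agt, is a secreted protein of the serpin fold from which renin releases the decapeptide angiotensin I. Angiotensin-converting enzyme, the product of Ace, trims this to angiotensin II and also inactivates bradykinin. Aminopeptidase A, the product of Enpep, removes the first residue of angiotensin II to leave angiotensin III, and neprilysin, the product of Mme, cleaves both angiotensins and kinins. Angiotensin II signals through AT1 and AT2 receptors, and kinins, released from kininogens by kallikreins, through B1 and B2 receptors. Osteoblasts are known to respond to both angiotensin II and bradykinin, and kinins raise prostaglandin formation in them.

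The 250 bases upstream of the annotated starts of Agt and Enpep are shown because these genes had the members' largest differences. Sequences are from RefSeq on GRCm38.p6, read 5′ to 3′ along the gene. Capitals mark matches to any of 6 motifs searched on both strands. These were the TATA box TATAAA, the CCAAT box, the E box CACGTG, the C/EBP element TTGCNNAA, the single glucocorticoid receptor hexamer AGAACA and the palindromic glucocorticoid response element, which contains that hexamer.
Agt, chr8:124569707-124569956, minus strand: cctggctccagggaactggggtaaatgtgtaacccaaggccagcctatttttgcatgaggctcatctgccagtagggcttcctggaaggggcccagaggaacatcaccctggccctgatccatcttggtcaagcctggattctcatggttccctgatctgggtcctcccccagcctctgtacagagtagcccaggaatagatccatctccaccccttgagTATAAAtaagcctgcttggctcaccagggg
Enpep, chr3:129332750-129332999, minus strand: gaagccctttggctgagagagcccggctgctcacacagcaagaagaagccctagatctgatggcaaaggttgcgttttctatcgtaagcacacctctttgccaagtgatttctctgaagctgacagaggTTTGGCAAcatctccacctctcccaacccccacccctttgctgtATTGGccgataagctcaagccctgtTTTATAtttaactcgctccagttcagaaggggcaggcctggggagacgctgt

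In the Agt window the sole match was TATAAA on the gene's own strand, from -30 to -25 relative to the start. TATAAA on either strand was held by 12.4% of all 32851 windows of this length. The Enpep window held TATAAA on the opposite strand from -52 to -47, CCAAT on the opposite strand from -77 to -73 and TTGCNNAA on the opposite strand from -121 to -114. CCAAT was held by 33.8% and TTGCNNAA by 9.56% of all windows. The hexamer AGAACA was in 16.1% of windows and in none of the 10 windows of the 7 members that have one, and the palindromic element was in 3 of the 32851 and in none of these 10. A match of letters is no evidence of a bound site, and elements outside these 250 bases were not searched.

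The deposited values are log2 expression after RMA (robust multi-array averaging), with every probe set shifted to a median of 0 (to within 1e-06) across the 6 arrays. Such values show how arrays differ for a gene but not how strongly the gene is expressed, so a receptor that is flat may be expressed evenly or not at all. With separated groups, the centring also makes the nearest pair of arrays, 1 from each group, equal in size and opposite in sign. Array medians lay between -0.00499 and 0.00838. Of the osteoblast markers measured, Ibsp (3.12), Dmp1 (3.44) and Alpl (0.96) rose, Col1a1 (-0.40) and Sp7 (-0.40) fell and Col1a2 (-0.13) did not pass. Markers of other cell types moved little. Of the macrophage genes 2 of 6 rose, Cd68 (0.44) and Cd14 (0.42), as did 1 of 6 endothelial genes, Vwf (0.23). In limma 0 of 5 adipocyte and 0 of 5 smooth muscle genes passed, and the sizes of these 10 reached at most 0.19. Over all genes 16.4% were higher and 19.1% lower. All 3 measured proliferation markers fell, from -2.94 in Mki67 to -1.88 in Top2a, the last a mean of 2 unlike probe sets (-2.72 and -1.04). The part of proliferation in the differences described here was not tested.

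Of the 8 measured members 3 were higher in differentiated cells, 1 was lower and 4 did not pass an adjusted p of 0.05 in limma. Among all genes 16.4% were higher and 19.1% lower, 35.5% in all. The count includes both genes for which the set was chosen, and nothing is read from it. The groups did not overlap for 4 of the 8 members, Agt, Enpep, Mme and Bdkrb1, and for 46.2% of all genes. The median difference of the 8 was 0.014 on the log2 scale, against 0.021 over all genes.

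**Figure D1:**
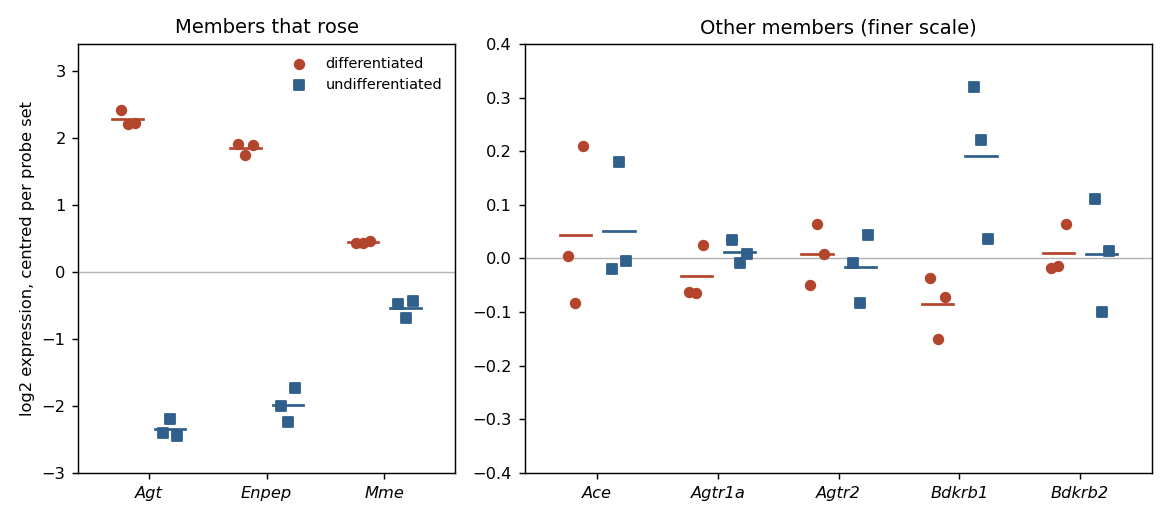
Centred log2 expression of the 8 measured members in each of the 3 differentiated arrays (red circles) and 3 undifferentiated arrays (blue squares), with bars at group means. In the left panel all differentiated arrays lie above all undifferentiated ones, by a gap of 4.41 for Agt, 3.48 for Enpep and 0.86 for Mme. The right panel has a finer vertical scale, and among its genes the groups are apart in Bdkrb1 alone.

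The precursor gene Agt (probe set 10582658) had centred log2 values of 2.41, 2.20 and 2.22 in differentiated arrays, against -2.40, -2.20 and -2.45 in undifferentiated arrays. Each group lay within 0.24, and the gap between them was 4.41. Differentiated minus undifferentiated was 4.63 ± 0.083 on the log2 scale (SE, 3 arrays per group), a 24.7-fold higher signal. This was the 7th largest rise of the 19938 genes, and after quantile scaling the difference was 3.84. In RNA from whole cultures, a larger share of cells making a transcript and more of it per cell cannot be told apart. The replicate spread of Agt was above the median of the array, with a pooled within-group SD of 0.12 against 0.081, at the 78.3 percentile of all genes.

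Enpep (probe set 10502081), encoding the aminopeptidase that turns angiotensin II into angiotensin III, had values of 1.91, 1.74 and 1.90 in differentiated arrays, against -2.0, -2.24 and -1.74 in undifferentiated arrays. The undifferentiated arrays were spread over 0.51 and the differentiated ones over 0.17. The difference was 3.84 ± 0.12, or 14.4-fold, and ranked 11th among rises. Its pooled SD was at the 96.7 percentile, so that its fold is among the less tightly measured here. The gap between the groups was 3.48, given as a description because Enpep was chosen for its rise.

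Mme (probe set 10492355), encoding neprilysin, a membrane metallopeptidase also known as CD10, had values of 0.43, 0.43 and 0.46 in differentiated arrays, against -0.48, -0.69 and -0.43 in undifferentiated arrays. The differentiated arrays were within 0.029 of each other and all lay above the undifferentiated ones. Mme was 1.96-fold higher (0.97 ± 0.072, 95% interval 0.81 to 1.14, adjusted p = 8.56e-06 in limma). Its rank among rises was 543.

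Ace (probe set 10381962), the converting enzyme between angiotensin I and II, had values of 0.0042, -0.083 and 0.21 in differentiated arrays, against -0.020, 0.18 and -0.0042 in undifferentiated arrays. The highest and the second highest array came from different groups, and the groups overlapped. The difference was -0.0094 ± 0.088 (adjusted p = 0.954), and its 95% interval of -0.21 to 0.19 leaves out changes of 2-fold in either direction.

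Angiotensin receptors showed no difference past the threshold. Agtr1a (probe set 10404376), the main AT1 receptor gene of the mouse, had values of -0.062, -0.065 and 0.026 in differentiated arrays, against 0.034, -0.0082 and 0.0082 in undifferentiated arrays. Its difference was -0.045 ± 0.053 (95% interval -0.16 to 0.075, adjusted p = 0.584). Agtr2 (probe set 10599001), the AT2 receptor gene, had -0.050, 0.065 and 0.0085 in differentiated arrays, against -0.0085, -0.083 and 0.043 in undifferentiated arrays. The arrays of the groups were interleaved, and the difference was 0.024 ± 0.059 (95% interval -0.11 to 0.16, adjusted p = 0.809).

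Between the kinin receptors, B1 is known to be induced by inflammation and B2 to be made constitutively. Bdkrb1 (probe set 10398121), the B1 receptor gene, had values of -0.036, -0.15 and -0.071 in differentiated arrays, against 0.32, 0.22 and 0.036 in undifferentiated arrays. All differentiated arrays lay below all undifferentiated ones, but undifferentiated replicate 3 was close, with a gap of 0.071. Bdkrb1 was 1.21-fold lower (-0.28 ± 0.078, 95% interval -0.46 to -0.10, adjusted p = 0.0212). The call was lost after cyclic loess scaling (-0.15, adjusted p = 0.119, other settings with all arrays staying under 0.05) and without differentiated replicate 2 (0.072), differentiated replicate 3 (0.0542), undifferentiated replicate 1 (0.0704) or undifferentiated replicate 2 (0.067), with differences from -0.29 to -0.21 in those 4, while over all alternatives adjusted p ran from 0.00297 to 0.119. Bdkrb2 (probe set 10398117), the B2 receptor gene and the chromosomal neighbour of Bdkrb1, had -0.017, -0.014 and 0.064 in differentiated arrays, against 0.11, -0.10 and 0.014 in undifferentiated arrays. Its difference was 0.0042 ± 0.066 (95% interval -0.15 to 0.16, adjusted p = 0.973), with the groups overlapping.

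The other genes that form, trim or sense angiotensins moved in both directions. Of 20 genes listed for this role beyond the members, 16 were measured, 5 of which rose, 5 fell and 6 did not pass, beside 16.4% higher and 19.1% lower over all genes, with a median of 0.045. This list and the pathway lists below were chosen with earlier results of these data known, and nothing is read from their counts or medians. The renin genes Ren1 and Ren2 were among those not analysed here. Ctsd, the lysosomal aspartic protease cathepsin D, which can release angiotensin I from its precursor, had 1.04, 1.06 and 0.97 in differentiated arrays, against -1.01, -1.03 and -0.97 in undifferentiated arrays, and was 4.08-fold higher (2.03 ± 0.053, adjusted p = 2.82e-08). Anpep, aminopeptidase N, which acts after aminopeptidase A by shortening angiotensin III, had 0.93, 0.61 and 0.67 in differentiated arrays, against -0.73, -1.15 and -0.61 in undifferentiated arrays, and was 2.96-fold higher (1.56 ± 0.14, adjusted p = 2.63e-05). Ctsa, the lysosomal carboxypeptidase cathepsin A, which removes the last residue of angiotensin I, was 2.53-fold higher (1.34 ± 0.059, adjusted p = 3.50e-07). Atp6ap2, the prorenin receptor and an accessory subunit of the vacuolar proton pump, was 2.06-fold higher (1.04 ± 0.077, adjusted p = 7.95e-06). Igf2r, the mannose 6-phosphate receptor that takes up prorenin, was 1.33-fold higher (0.41 ± 0.063, adjusted p = 8.51e-04). Of these, 4 were at least 2-fold higher, which 2.53% of all genes were, and Prep below was the only fall of that size in this list, against 2.28% of all genes.

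The 5 falls were all in peptidases that cleave or degrade angiotensins. Prep, the cytosolic prolyl endopeptidase, had -0.66, -0.59 and -0.58 in differentiated arrays, against 0.72, 0.75 and 0.58 in undifferentiated arrays, and was 2.45-fold lower (-1.29 ± 0.062, adjusted p = 5.68e-07). Aminopeptidase B, Rnpep, was 1.55-fold lower (-0.64 ± 0.095, adjusted p = 6.89e-04) and thimet oligopeptidase, Thop1, 1.35-fold lower (-0.44 ± 0.077, adjusted p = 0.0019). Smaller falls were seen in Prcp, a lysosomal carboxypeptidase that removes the last residue of angiotensin II (-0.31 ± 0.059, adjusted p = 0.00265), and in dipeptidyl peptidase Dpp3 (-0.29 ± 0.078, adjusted p = 0.0188), both named after their values were seen. The difference of Dpp3 was -0.52 after cyclic loess scaling, and it did not pass without differentiated replicate 2 (0.0676), differentiated replicate 3 (0.0743) or undifferentiated replicate 2 (0.0612). Prep, Thop1 and Mme can each turn angiotensin I into the heptapeptide that activates Mas1, and of the 3 Mme alone was higher. Mas1 itself was at -0.016 ± 0.062 (adjusted p = 0.879), and Agtrap, which binds the AT1 receptor and promotes its internalisation, at 0.17 ± 0.063 (adjusted p = 0.0726; 0.0328 without differentiated replicate 2).

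**Figure D2:**
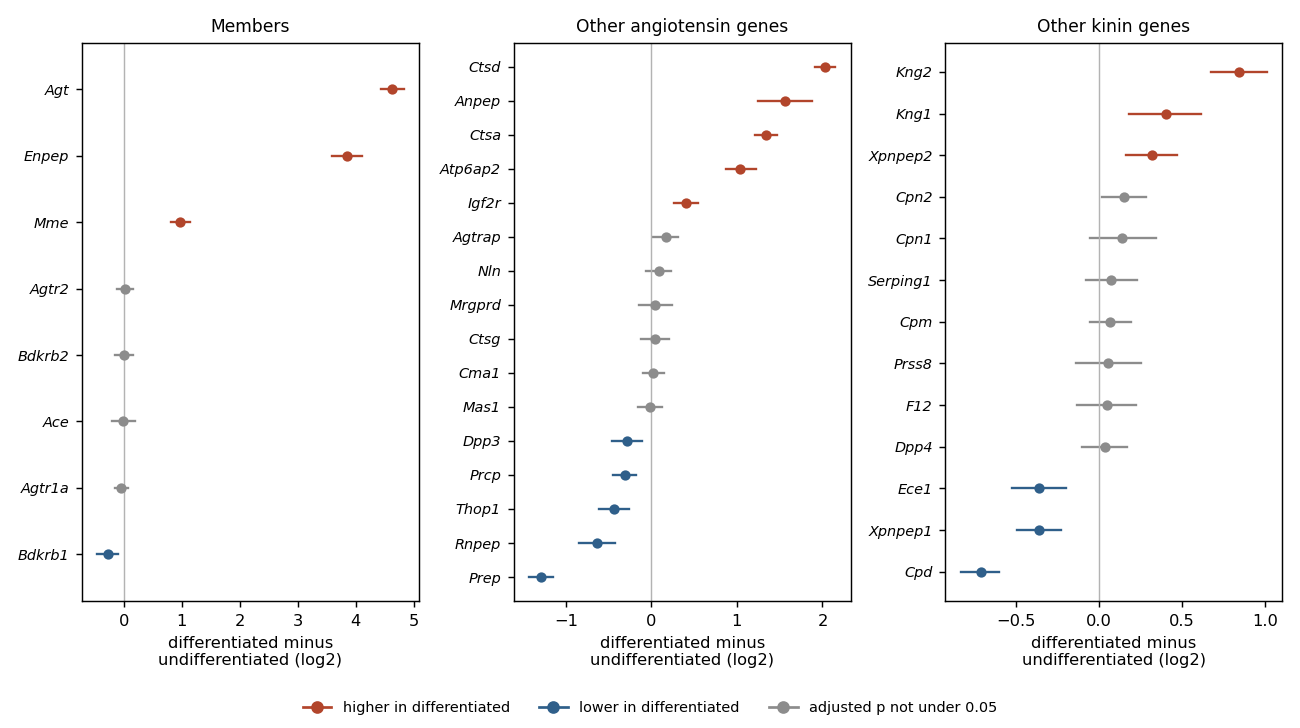
Differentiated minus undifferentiated on the log2 scale, with 95% intervals from limma over 3 arrays per group, for the 8 measured members, 16 other angiotensin genes and 13 other kinin genes. Horizontal scales differ between panels. Agt and Enpep stand at 4.63 and 3.84, the other angiotensin genes between -1.29 (Prep) and 2.03 (Ctsd), and the other kinin genes between -0.71 (Cpd) and 0.84 (Kng2). The intervals drawn for Agt and Enpep do not allow for the choice of these genes by their rise.

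Among kinin genes beyond the members 13 of 18 were measured, and 3 rose, 3 fell and 7 did not pass, beside 16.4% and 19.1% over all genes, with a median of 0.067. None of the 13 changed 2-fold. Kng2, a kininogen gene, had 0.52, 0.32 and 0.55 in differentiated arrays, against -0.32, -0.36 and -0.45 in undifferentiated arrays, and was 1.79-fold higher (0.84 ± 0.073, adjusted p = 2.28e-05). Its close paralogue Kng1 was 1.32-fold higher (0.40 ± 0.095, adjusted p = 0.00987), and probes of such similar genes may read both, so which of them changed is uncertain. Xpnpep2, the membrane-bound aminopeptidase P, which removes the first residue of bradykinin, was higher (0.32 ± 0.068, adjusted p = 0.00547), while its cytosolic counterpart Xpnpep1 was lower (-0.36 ± 0.058, adjusted p = 0.00112). Carboxypeptidase D, Cpd, which can remove the last arginine of kinins and so make B1 agonists, was 1.64-fold lower (-0.71 ± 0.050, adjusted p = 5.85e-06). Ece1, the endothelin-converting enzyme, which also cleaves bradykinin, fell as well (-0.36 ± 0.070, adjusted p = 0.00335). Factor XII (F12) was at 0.046 ± 0.078 and its inhibitor Serping1 at 0.074 ± 0.067, neither past the threshold (adjusted p = 0.716 and 0.455).

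Enpep and Mme were also set beside the other members of their own peptidase families. In the M1 family of zinc aminopeptidases, 9 genes other than Enpep were measured, of which 3 were higher, 3 were lower and 3 did not pass, beside 16.4% higher and 19.1% lower over all genes, with a median of 0.073. After Enpep and Anpep came Lta4h, the leukotriene A4 hydrolase, at 2.02-fold (1.01 ± 0.064, adjusted p = 3.01e-06), with 0.51, 0.50 and 0.46 in differentiated arrays, against -0.46, -0.47 and -0.65 in undifferentiated arrays. Trhde, which degrades thyrotropin-releasing hormone, was 1.15-fold higher (0.20 ± 0.048, adjusted p = 0.0115). Rnpep, Erap1 (-0.26 ± 0.073, adjusted p = 0.0202), an aminopeptidase of antigen processing, and Rnpepl1 (-0.17 ± 0.051, adjusted p = 0.0266) were lower. The 3 falls became 1 without differentiated replicate 1, differentiated replicate 3 or undifferentiated replicate 1. Npepps, the cytosolic puromycin-sensitive aminopeptidase, was at -0.13 ± 0.066 (adjusted p = 0.186). The M1 genes thus spanned -0.64 to 3.84.

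In the neprilysin family, M13, all 7 genes were measured, and Mme rose, Ece1 fell and 5 did not pass. Over all genes 16.4% were higher and 19.1% lower. The family median was 0.025, against 0.021 over all genes. Phex, whose loss causes phosphate wasting and soft bone, was at -0.048 ± 0.051 (adjusted p = 0.539), and the close neprilysin relative Mmel1 at 0.025 ± 0.063 (adjusted p = 0.82). Ece2 averaged 0.16 ± 0.065 (adjusted p = 0.0932), but its pair of probe sets disagreed, with -0.74 ± 0.10 in one and 1.06 ± 0.052 in the other, and its direction is therefore undetermined.

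Signalling genes downstream of AT1 and B2 receptors, both of which couple to Gq proteins and phospholipase C, moved in both directions. Of 29 measured genes 10 fell, 7 rose and 12 did not pass, beside 19.1% lower and 16.4% higher over all genes, and the median was -0.071. Phospholipase C isoforms Plcb4 (-0.75 ± 0.060, adjusted p = 1.37e-05) and Plcb1 (-0.69 ± 0.050, adjusted p = 7.70e-06) fell. Plcb3, named to complete the isoforms, fell as well (-0.45 ± 0.066, adjusted p = 6.60e-04). Plcb2 was at 0.12 ± 0.089 (adjusted p = 0.342, but 0.0132 without undifferentiated replicate 3). Plcb1 had -0.33, -0.32 and -0.34 in differentiated arrays, against 0.38, 0.32 and 0.38 in undifferentiated arrays, with no overlap. The protein kinase C gene Prkca (-0.46 ± 0.060), the receptor kinase Grk6 (-0.57 ± 0.062) and the G protein subunit Gna12 (-0.46 ± 0.055) fell, with adjusted p-values up to 2.85e-04. Gnaq, the Gq subunit itself, was at -0.098 ± 0.051 (adjusted p = 0.185).

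Rises in the same list were led by Rgs2, which shortens Gq signalling by speeding GTP hydrolysis. Rgs2 had 0.86, 0.96 and 0.91 in differentiated arrays, against -0.86, -0.96 and -1.04 in undifferentiated arrays, and was 3.64-fold higher (1.86 ± 0.063, adjusted p = 8.63e-08). The EGF receptor Egfr, which AT1 receptors can transactivate, was 2.27-fold higher (1.18 ± 0.063, adjusted p = 1.0e-06). The receptor kinase Grk3 was higher as well (0.47 ± 0.092, adjusted p = 0.00318).

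**Figure D3:**
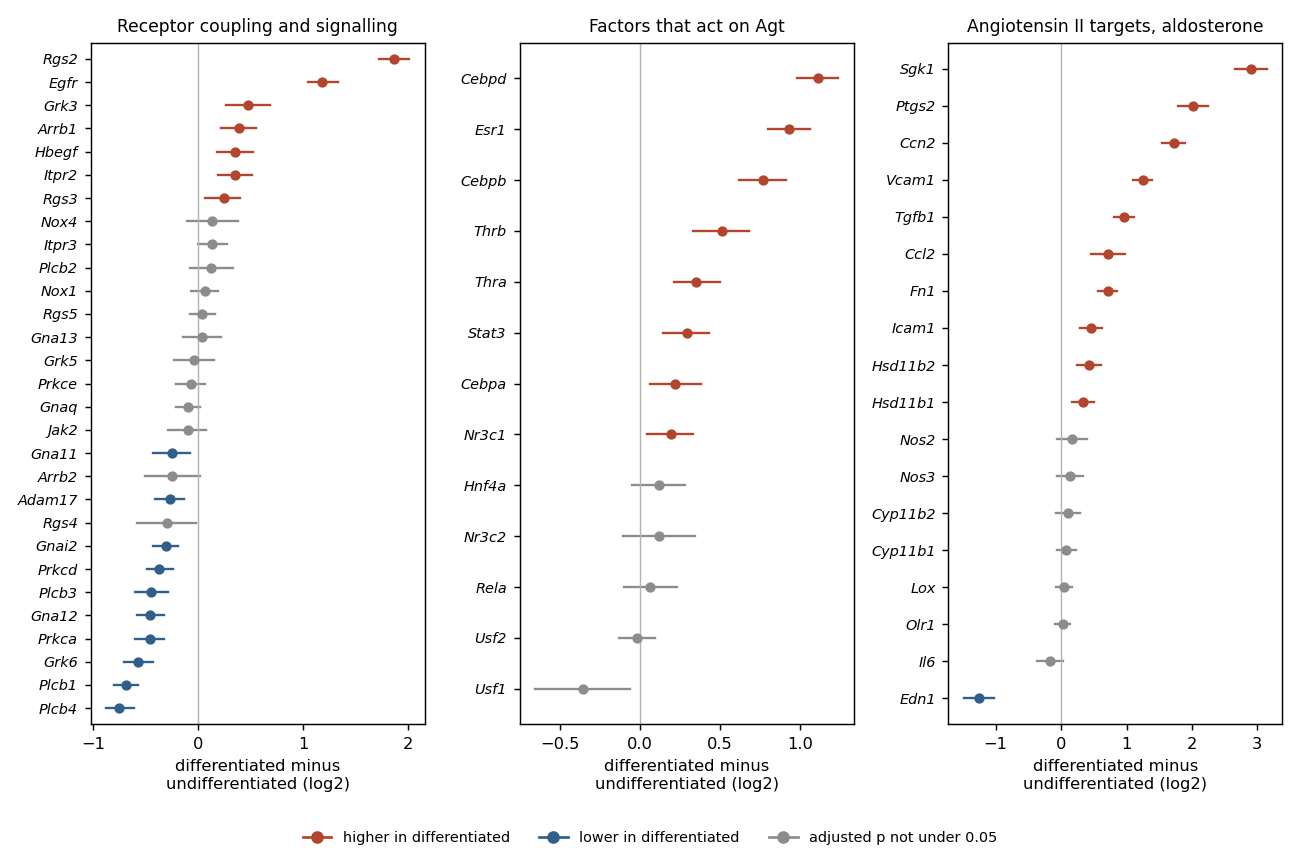
Differentiated minus undifferentiated on the log2 scale, with 95% intervals from limma over 3 arrays per group, for 29 genes of AT1 and B2 receptor signalling, 13 factors known to act on Agt transcription, and 18 angiotensin II target or aldosterone pathway genes. Horizontal scales differ between panels. Rgs2 (1.86) leads the first panel and Plcb4 (-0.75) ends it, Cebpd (1.11) leads the second and Sgk1 (2.90) the third.

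Transcription factors that are known from liver and other tissues to act on the Agt gene were examined next. Of 16 listed, 13 were measured, and 8 rose, 0 fell and 5 did not pass in limma (Usf1, at -0.36 ± 0.13, fell after cyclic loess, adjusted p = 0.0422, and without differentiated replicate 1, 0.0408). Over all genes 16.4% were higher and 19.1% lower. The list median was 0.22, against 0.021 over all genes. Because the list was chosen with earlier results of these data known, nothing is read from its count or median. Cebpd, an acute-phase C/EBP factor, had 0.52, 0.54 and 0.53 in differentiated arrays, against -0.67, -0.56 and -0.52 in undifferentiated arrays, and was 2.16-fold higher (1.11 ± 0.057, adjusted p = 8.54e-07). The oestrogen receptor Esr1 was 1.91-fold higher (0.93 ± 0.058, adjusted p = 2.82e-06) and Cebpb 1.70-fold (0.77 ± 0.063, adjusted p = 1.66e-05). Thyroid hormone receptors Thrb (0.51 ± 0.079) and Thra (0.35 ± 0.064) and the cytokine-activated factor Stat3 (0.29 ± 0.065) also rose, with adjusted p-values of 0.00744 or lower. The glucocorticoid receptor Nr3c1, the target of the dexamethasone in the induction medium, was 1.14-fold higher and barely passed (0.19 ± 0.064, adjusted p = 0.0482). Cebpa, a further C/EBP factor, was at 0.22 ± 0.069 (adjusted p = 0.034) and did not pass without differentiated replicate 1 (0.121), differentiated replicate 3 (0.0934), undifferentiated replicate 2 (0.109) or undifferentiated replicate 3 (0.0788). Nr3c1 no longer passed under 9 of the 14 alternatives, among them the omission of each array in turn. Rela, a subunit of NF-κB, was at 0.062 ± 0.072 (adjusted p = 0.577).

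Genes that angiotensin II is known to induce in other cells, together with the aldosterone pathway, made the last list, whose members answer many other signals as well. Of 18 measured genes 10 rose, 1 fell and 7 did not pass, beside 16.4% higher and 19.1% lower over all genes, with a median of 0.38, against 0.021 over all genes. Earlier results were known when this list was chosen too, and nothing is read from its count or median. Sgk1, a kinase induced by both mineralocorticoids and glucocorticoids, was 7.47-fold higher (2.90 ± 0.11), the inducible cyclooxygenase Ptgs2 4.04-fold (2.01 ± 0.097) and the matricellular gene Ccn2 3.30-fold (1.72 ± 0.078), each with an adjusted p of 5.61e-07 or lower. Ptgs2, the enzyme through which kinins raise prostaglandins, had 1.19, 0.86 and 1.01 in differentiated arrays, against -0.97, -0.86 and -1.14 in undifferentiated arrays. Vcam1 (1.25 ± 0.064), Tgfb1 (0.96 ± 0.067), Ccl2 (0.72 ± 0.12) and Fn1 (0.71 ± 0.062) rose too, with adjusted p-values up to 0.00103. Endothelin 1, Edn1, was 2.39-fold lower (-1.26 ± 0.099, adjusted p = 1.23e-05). Both 11β-hydroxysteroid dehydrogenase genes, named after their values were seen, rose: Hsd11b2, which inactivates glucocorticoids, by 0.42 ± 0.080 (adjusted p = 0.00268) and Hsd11b1, which regenerates them, by 0.34 ± 0.072 (adjusted p = 0.00561). The aldosterone and corticosterone synthases Cyp11b2 (0.10 ± 0.080, adjusted p = 0.377) and Cyp11b1 (0.076 ± 0.063, adjusted p = 0.409), close paralogues, and the mineralocorticoid receptor Nr3c2, from the list of Agt factors (0.12 ± 0.10, adjusted p = 0.433; 0.0129 without undifferentiated replicate 3) did not pass.

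The members' differences were set beside those of adjacent genes in chromosome order, as a description. For comparison, 35.5% of all genes passed the threshold in either direction. Beside Agt on chromosome 8, Cog2 was at 0.13 ± 0.053 and Capn9 at 0.11 ± 0.065, neither past the threshold (adjusted p = 0.0962 and 0.221). Of the 6 nearest protein-coding genes, 3 on each side of Agt, Pgbd5 (0.39 ± 0.063, adjusted p = 0.00117) and 2310022B05Rik (0.35 ± 0.069, adjusted p = 0.00315) were higher. Ttc13 was lower (-0.30 ± 0.080, adjusted p = 0.0171), and Galnt2 did not pass (-0.15 ± 0.061, adjusted p = 0.0845). Beside Enpep on chromosome 3, Elovl6, a fatty acid elongase, was at 0.94 ± 0.068 (adjusted p = 7.34e-06), while Egf, one gene further, was at -0.29 ± 0.073 (adjusted p = 0.0123). The adjacent gene on the other side of Enpep was not measured. Beyond it, Fam241a was at -0.096 ± 0.067 (adjusted p = 0.322 in limma) and Ap1ar at -0.60 ± 0.054 (adjusted p = 2.76e-05). Around Mme, Dhx36 was lower, at -0.42 ± 0.086 (adjusted p = 0.00432 in limma). The other 4 measured neighbours did not pass (adjusted p from 0.504 to 0.899), while 35.5% of all genes passed in either direction. Atg2b, on the far side of Bdkrb1 from Bdkrb2 on chromosome 12, was at 0.040 ± 0.062 (adjusted p = 0.69).

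**Figure D4:**
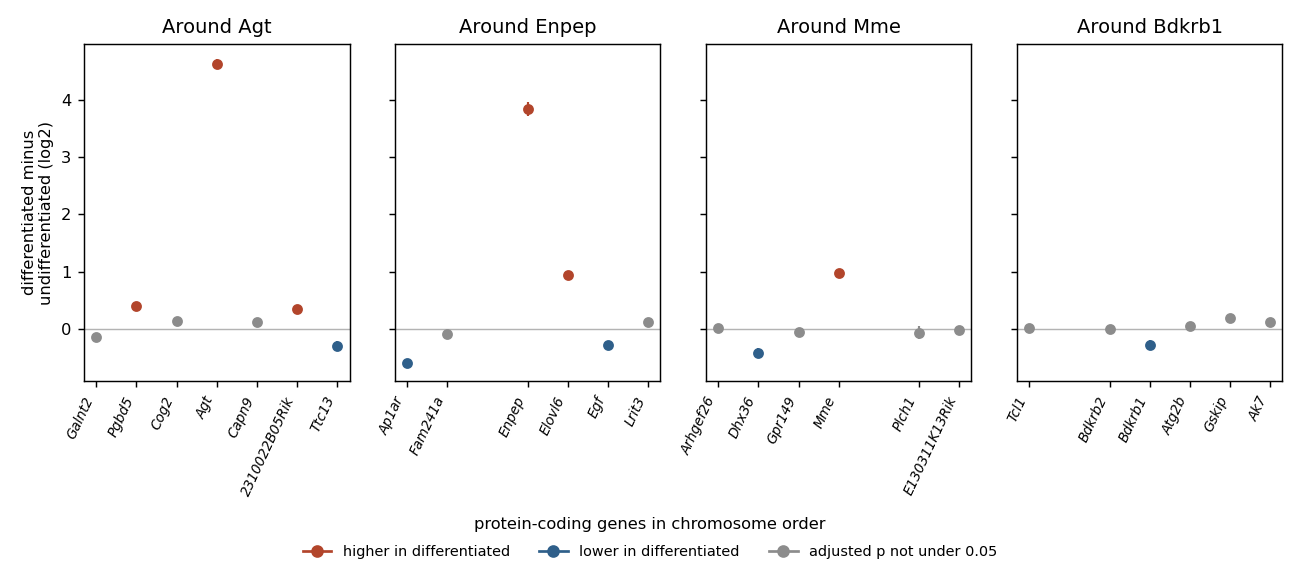
Differentiated minus undifferentiated on the log2 scale, with SE bars that are mostly smaller than the points, for Agt, Enpep, Mme and Bdkrb1 and the measured genes among the 3 nearest protein-coding genes on each side, in chromosome order without distances. Agt (4.63) and Enpep (3.84) stand above all measured neighbours, of which Elovl6 (0.94) is the highest.

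Predicted or unnamed loci were passed over in looking for the genes nearest in their 6 array values, by Euclidean distance on the log2 scale. Nearest to Agt were Cped1 (distance 0.209), the glycoprotein gene Gpnmb (0.488), the orphan nuclear receptor Nr4a1 (0.540), the retinaldehyde dehydrogenase Aldh1a1 (0.663) and lumican, Lum (0.845). Nearest to Enpep were the collagen gene Col15a1 (0.290), the receptor kinase Mertk (0.418), Itgbl1 (0.468), Aldh1a1 (0.619) and Fam180a (0.624). Mme lay in a denser part of the distribution, with the receptor gene Notch2 at 0.0716 and Mroh1, Abca8b, Mir145a and Tmbim1 between 0.101 and 0.106. These distances follow mainly the size of the group difference, since the arrays form just 2 groups, and they describe likeness over these 6 arrays.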

How the data were processed

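RNA of 3 differentiated and 3 undifferentiated samples was measured on biotin-labelled 1-colour arrays. The authors deposited log2 expression made with RMA, per the submitters' processing notes (no version is stated). RMA values are on a log2 base by definition, the direction was taken as higher for more RNA, and the centring was seen in the values. No level, detection call or filter on dim probe sets can be had. Precision is set by having 3 arrays in each group.

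Of 28856 probe sets, 21789 name 1 gene in the platform's annotation and were used, with symbols updated by gene ID (RefSeq, GRCm38.p6), while 1621 name several genes and 5446 none. Probe sets of a gene were averaged. Differentiated minus undifferentiated was fitted with limma 3.58.1 in R 4.3.3 (lmFit, eBayes, two-sided) on all 19938 genes, with Benjamini-Hochberg adjustment and a threshold of 0.05, and was tested on simulated data. Changes of 2-fold are a log2 difference of 1.

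Members and lists were chosen with earlier results of these data known. Text names every member, in each pathway list the genes past the threshold with the largest changes, up to 8, and central genes that did not pass, with exceptions stated. Promoter motifs were matched in 32851 windows. Lists without a set test are given by counts and medians. Protein sequences were not used here.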

Additional observations from a re-analysis of the deposited data

How the results depend on the processing

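Under 14 alternatives (replicate number as a block, 3 scalings, array weights, robust eBayes, 2 treatments of several probe sets, each of 6 arrays left out), Mme stayed higher. As a description, since their rise chose them, Agt ranged from 3.84 to 4.70 and Enpep from 3.39 to 3.97. Mme ranged from 0.87 to 1.02. The lowest Agt and Enpep values (3.84 and 3.39) came with quantile scaling. Quantile and cyclic loess scaling were run on the centred RMA values, which carry no expression level to scale against. The count of lower members was 0 after cyclic loess and 0 to 1 with an array left out. With an array left out, M1 falls numbered 1 to 3, neprilysin family rises 1 to 2 and falling Agt factors 0 to 1, the last also 1 after cyclic loess. With every probe set tested, the neprilysin family had 2 higher and 2 lower, and with the lowest-numbered probe set 2 lower. Ece2 was then reversed, at -0.74. Over all genes, 2675 to 3656 were higher and 3297 to 4193 lower. Same-numbered arrays had correlations of deviations of -0.00133, 0.0692 and 0.162, and differently numbered ones from -0.183 to 0.135. With 3 arrays per group these cannot settle whether the numbers mark pairs. With the replicate block 3 members were higher and 1 lower, and Rnpepl1 (-0.17) no longer passed. The planned filter on dim genes was not run, since the values keep no level.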

Other observations

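Angiotensinogen belongs by fold to the serpins, a family of mostly protease inhibitors, although it inhibits none. All 47 measured genes with a serpin symbol were looked at after the members' values had been seen. Of them 7 rose, 3 fell and 37 did not pass, beside 16.4% higher and 19.1% lower over all genes. The median was 0.019, against 0.021 over all genes. Serpina3n, an acute-phase inhibitor of clade A like Agt, was 3.83-fold higher (1.94 ± 0.12, adjusted p = 3.31e-06 in limma) and was the family's largest rise after Agt. Serpinb8 (0.83 ± 0.14), Serpinb6b (0.70 ± 0.073) and Serpinb9 (0.50 ± 0.079), which act inside cells, rose less. The elastase inhibitor Serpinb1a was 2.83-fold lower (-1.50 ± 0.12, adjusted p = 1.08e-05), and the collagen chaperone Serpinh1 (-0.79 ± 0.069) and Serpinf1 (-0.44 ± 0.051), which encodes the secreted factor PEDF, fell too. Serpina6, the plasma carrier of glucocorticoids, was at -0.075 ± 0.055 (adjusted p = 0.358).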
